A study of Mus musculus with 12 samples.

Results

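Chchd10, Chchd2 and the genes of the mitochondrial contact site and cristae organizing system (MICOS) were examined in mouse C2C12 myotubes treated with the mitochondrial uncoupler BAM15. The 7 genes, out of 15113 in the count table, were Chchd10, Chchd2, Immt, Chchd3, Chchd6, Apoo and Apool. They were chosen by name with results of the BAM15 comparison already known, the rise of Chchd10 among them, so their differences between BAM15 and vehicle are given as values with standard errors and no p-value, and the calls given for them are a description and not a test. All 7 passed the filter on low counts.

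Mitochondrial ATP is made on cristae, folds of the inner membrane that open into the intermembrane space through narrow necks called cristae junctions. MICOS sits at these necks: MIC60 (Immt), with MIC19 (Chchd3) and MIC25 (Chchd6), reaches toward the outer membrane, whereas MIC10 (Minos1) bends the membrane, MIC13 (2410015M20Rik) links the arms, and MIC26 (Apoo) and MIC27 (Apool) are apolipoprotein-like subunits. CHCHD10 and CHCHD2 are paralogous small proteins of the intermembrane space that carry twin CX9C motifs, and mutations in them cause motor neuron disease, muscle disease and Parkinson's disease. Skeletal muscle is rich in CHCHD10.

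C2C12 cells are mouse myoblasts that, once switched to low serum, fuse into multinucleate myotubes. Fully differentiated myotubes received 20 µM BAM15, a protonophore that carries protons across the inner membrane, dissolved in DMSO, or DMSO vehicle alone, each for 16 h. Both groups were the same line, with no modification named in the labels, and 6 libraries each. RNA was sequenced from the 3′ end (QuantSeq), which counts the ends of transcripts whatever their length. CPM (counts scaled to a common library size with the TMM factors of edgeR) therefore needed no division by length. Comparisons of CPM between genes remain limited where reads also fit other transcripts, as described below for some members. The labels do not say whether the 6 libraries of a group came from separate cultures, and p-values measure only the spread between these libraries, which may be technical.

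Total counts ranged from 13983725 to 18751780 with BAM15 and from 15299135 to 18866728 with vehicle. The BAM15 libraries fell into sets that the labels do not explain. In 27.8% of the 12730 tested genes, BAM15 libraries 1 to 3 all lay above libraries 4 to 6, and in 22.2% they all lay below, against 7.60% and 6.60% for the vehicle libraries with the same numbers. The sets are therefore described below for the members in which they differ, and most other genes are given over all 6 libraries of a group. The myotube markers Myog, Myh3, Ckm, Acta1, Myl1 and Tnnt3 were all expressed, with a summed level of 14024 to 15091 CPM with vehicle and 15102 to 19205 CPM with BAM15. With BAM15 the sum averaged 18636 CPM in libraries 1 to 3 and 15668 CPM in libraries 4 to 6. Acta1, skeletal actin, made up most of this sum and rose from 7568 to 10396 CPM (edgeR adjusted p = 3.96e-05), Myog was also called higher, Ckm was called lower, and Myh3, Myl1 and Tnnt3 were not called. The summed level of 6 myoblast and proliferation markers was 249 to 308 CPM with vehicle and 136 to 158 CPM with BAM15. Most of it came from the proliferation genes Top2a (192 to 69.5 CPM) and Mki67 (43.4 to 12.4 CPM), which were called lower together with Pax7, whereas the myoblast factor Myf5 was called higher (8.77 to 28.4 CPM) and Id1 and Id3 were not called. Myf5 counts with BAM15 were 174 to 316 reads in libraries 1 to 3 and 519 to 900 reads in libraries 4 to 6. In bulk RNA, fewer cells of a type and less RNA per cell cannot be told apart. Of 3 adipocyte markers, Fabp4 alone was listed, at no more than 0.172 CPM. The part of these shifts in the results below was not tested.

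The sequence upstream of Chchd10 is shown first because Chchd10 was the member with the large difference. The RefSeq window on GRCm38.p6 covers 250 bases before the gene's start and 50 after it, and its upstream portion is chr10:75932880-75933129 on the plus strand. Capitals mark the letters TGATGNAA (N is any base), the composite element bound by ATF4 with a C/EBP partner. Below it stands a stretch of the window of Pck2, mitochondrial phosphoenolpyruvate carboxykinase, whose profile over the 12 libraries was closest to that of Chchd10. It lies at chr14:55540147-55540186 on the plus strand, with the reverse complement of the same letters in capitals.

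Chchd10: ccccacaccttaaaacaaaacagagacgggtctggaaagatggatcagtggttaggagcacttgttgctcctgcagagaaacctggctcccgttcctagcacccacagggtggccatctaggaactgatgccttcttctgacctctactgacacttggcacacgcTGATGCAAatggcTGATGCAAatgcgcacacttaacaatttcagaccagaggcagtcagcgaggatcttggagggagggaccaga

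Pck2: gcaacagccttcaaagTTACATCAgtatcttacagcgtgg

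The window of Chchd10 held 2 matches, beginning 85 and 72 bases before the start, and the window of Pck2 held 1, beginning 103 bases before it. Both strands were searched. At least 1 match was present in 3.97% of all 32851 RefSeq windows and 2 or more in 0.07%. The windows of Immt, Chchd3, Chchd6, Apoo and Apool held none, nor did those of Angptl6, Sesn2 and Snhg12, which are among the genes with profiles like that of Chchd10. Gsta4, another such gene, had no window under its symbol and was not searched. The NRF1 motif, found in 4.60% of windows, matched in Immt alone among the members, and the estrogen-related receptor letters TCAAGGTCA (0.423% of windows) and the cyclic AMP response element TGACGTCA (1.79%) matched in none. No match of one motif overlapped another in these windows. The ratio of observed to expected CpG was 0.247 in the Chchd10 window and 0.554 to 0.923 in those of Immt, Chchd3, Chchd6, Apoo and Apool. The median over all windows was 0.384, and 35.3% of windows were at or below the Chchd10 value. GENCODE M21 gives Chchd10 a second coding start at position 75935573, 2443 bases downstream, whose upstream sequence was not analysed here. These matches describe the letters and not binding.

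Chchd10 (ENSMUSG00000049422, chr10:75933130-75937747, plus strand) was higher with BAM15. With vehicle its level had a lowest value of 24.4 CPM, a median of 28.1 and a highest of 31.4, and with BAM15 the corresponding values were 219, 246 and 279 CPM. The groups lay far apart, with every BAM15 library above every vehicle library by at least 188 CPM. Every BAM15 library lay above every vehicle library in 17.1% of all tested genes. The means were 27.8 ± 2.52 and 246 ± 26.6 CPM (SD, n = 6 each), a log2 fold change of 3.15 (standard error 0.09), or 8.86-fold. It ranked 85th from the top among 12730 tested genes by log2 fold change. BAM15 libraries 1 to 3 averaged 270 CPM and libraries 4 to 6 averaged 223 CPM, both well above vehicle, and the log2 fold change was 3.21 and 3.07 when each set was compared with the vehicle libraries of the same numbers.

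Chchd10 was the only member to be called higher, where a call is an adjusted p below 0.01 in the quasi-likelihood test of edgeR, corrected by the Benjamini-Hochberg method over all tested genes. Of all tested genes, 22.0% were called higher and 20.3% lower. It was also the only member past the study's 3 thresholds (adjusted p below 0.01, base mean above 50 and more than a 2-fold change), which 3.70% of genes passed as higher and 3.58% as lower. Since the members were picked from this contrast, nothing is read from these counts.

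**Figure D1:**
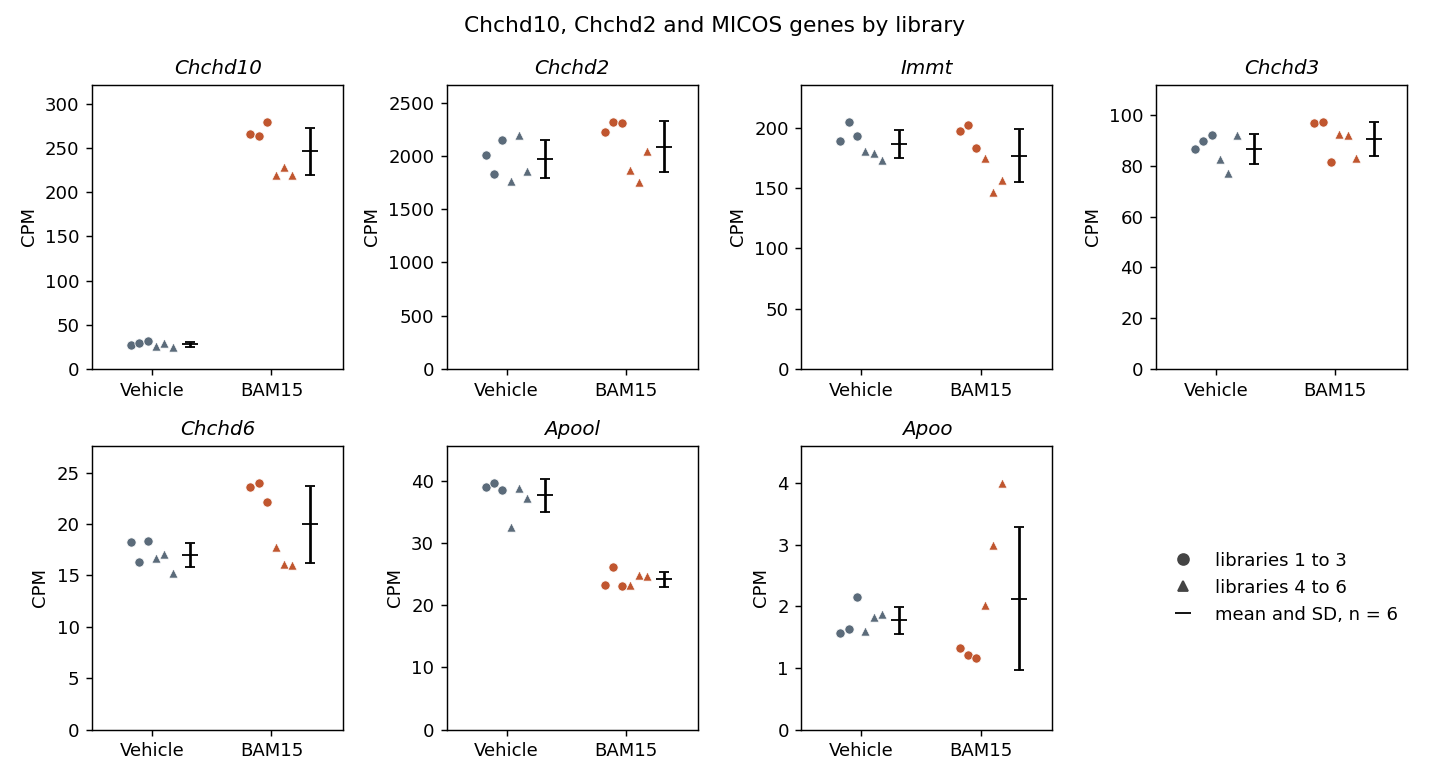
Level of each of the 7 genes (CPM, linear axis from 0) in every vehicle and BAM15 library; circles are libraries 1 to 3, triangles libraries 4 to 6, and bars the mean and SD of 6 libraries. Chchd10 separated the groups upward, as did 17.1% of all tested genes, and Apool downward, as did 17.0%. In the other 5 genes the groups overlapped.

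Chchd2 (ENSMUSG00000070493, chr5:129881156-129887470, minus strand), the paralog of Chchd10, was by far the most abundant member. Its lowest, median and highest levels were 1767, 1936 and 2196 CPM with vehicle and 1758, 2137 and 2319 CPM with BAM15. The groups overlapped over most of their range. The log2 fold change was 0.08 (standard error 0.08) and was not called. The BAM15 sets moved apart here as well, at a mean of 2285 CPM in libraries 1 to 3 and 1891 CPM in libraries 4 to 6. When the final 400 bases of the Chchd2 transcript were cut into overlapping 50-base windows, 45.3% of them also occurred in other annotated transcripts, those of Chchd2-ps, Gm12350, Gm4995, Gm6222 and Zbed5, so its reads could be split or discarded by the counting. The labels and the study's methods differ on the read length, and with 75-base windows the share was 33.4%. The 4 pseudogenes are not rows of the count table.

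The paralogs were thus set against each other within libraries, which cancels library size. For every 100 Chchd2 reads there were 1.41 ± 0.105 Chchd10 reads with vehicle and 11.8 ± 0.774 with BAM15 (SD, n = 6 each). The range was 1.31 to 1.58 with vehicle and 10.7 to 13.0 with BAM15. Unlike the level of Chchd10 itself, this ratio did not separate BAM15 libraries 1 to 3 from libraries 4 to 6. Even with BAM15, Chchd2 gave 8.48 times as many CPM as Chchd10.

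Genes around Chchd10 were then examined, a choice made after their values had been seen. GENCODE M21 places 8 other genes within 50 kb of Chchd10, of which 4 were in the count table and 3 could be tested. Gm867 runs on the opposite strand and shares the last 25 bases of Chchd10, chr10:75937723-75937747, shown on the plus strand because a read of these bases fits both genes unless strand is used:

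Chchd10 and Gm867: attaaaaagtttactttagaccaca

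Gm867 had a lowest, median and highest level of 0.384, 0.553 and 0.818 CPM with vehicle and 4.16, 5.73 and 7.73 CPM with BAM15. As with Chchd10, its BAM15 libraries 1 to 3 (mean 7.11 CPM) all lay above libraries 4 to 6 (mean 4.83 CPM). The log2 fold change was 3.37 (with standard error 0.21 and edgeR adjusted p = 4.76e-09). In every library its reads were a small share of those of Chchd10, 2.06 ± 0.532 per 100 Chchd10 reads with vehicle and 2.41 ± 0.389 with BAM15 (SD, n = 6 each), and these ratios overlapped between groups. Mmp11, a secreted matrix metalloproteinase, also runs on the opposite strand and covers 3367 bases of the Chchd10 gene, including 79 of the last 400 bases of its transcript. It rose from a median of 58.0 CPM (56.4 to 60.8) to 262 CPM (192 to 331), a log2 fold change of 2.17 (with standard error 0.12 and edgeR adjusted p = 1.57e-09). Within the BAM15 group its order ran against that of Chchd10, with libraries 4 to 6 all above libraries 1 to 3. Smarcb1, a chromatin-remodeling subunit just beyond Mmp11, did not pass the test (log2 fold change −0.04, edgeR adjusted p = 0.463). The strand on which reads were counted is not given in the sources used here, and its part in these values was not tested.

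**Figure D2:**
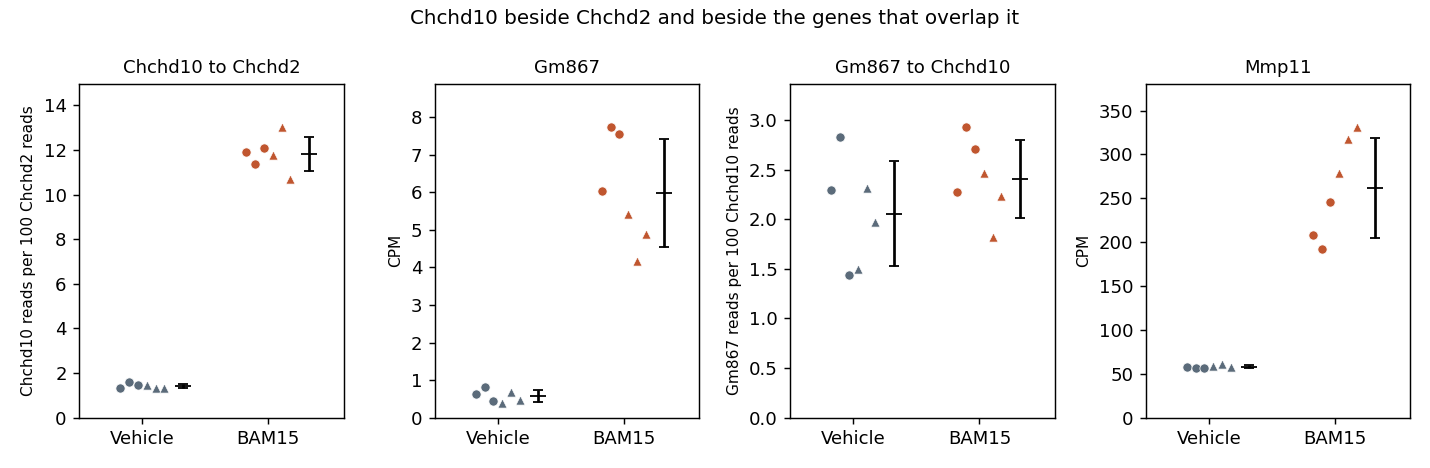
Chchd10 reads per 100 Chchd2 reads, Gm867 level (CPM), Gm867 reads per 100 Chchd10 reads and Mmp11 level (CPM) in each library, with circles for libraries 1 to 3, triangles for libraries 4 to 6 and bars for the mean and SD of 6. The groups separate in every panel except that of the Gm867 to Chchd10 ratio, where they overlap.

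The MIC60 arm of MICOS differed little between groups. Immt (ENSMUSG00000052337, chr6:71831331-71877388, plus strand), which encodes the large scaffold MIC60, had lowest, median and highest levels of 173, 184 and 205 CPM with vehicle and 146, 179 and 202 CPM with BAM15. The log2 fold change was −0.08 (standard error 0.08). The BAM15 group spread more widely and its libraries 5 and 6 lay below all vehicle libraries. In this gene libraries 1 to 3 lay above libraries 4 to 6 in both groups.

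Chchd3 (ENSMUSG00000053768, chr6:32790976-33060260, minus strand) encodes MIC19, which binds MIC60 and faces the outer membrane. Its levels were 77.3, 88.4 and 92.1 CPM (lowest, median and highest) with vehicle and 81.6, 92.5 and 97.4 CPM with BAM15. These ranges overlapped, with a log2 fold change of 0.06 (standard error 0.06), and the numbered sets overlapped as well. Chchd6 (ENSMUSG00000030086, chr6:89383146-89595652, minus strand) encodes MIC25, the close relative of MIC19. It was less abundant, at 15.3, 16.9 and 18.3 CPM with vehicle and 16.0, 20.0 and 24.0 CPM with BAM15. Its log2 fold change over all libraries was 0.23 (standard error 0.11) and was not called. BAM15 libraries 1 to 3 alone exceeded all vehicle libraries, at a mean of 23.3 CPM against 16.6 CPM in BAM15 libraries 4 to 6, and the log2 fold change was 0.40 in the fit of libraries 1 to 3 and 0.02 in that of libraries 4 to 6.

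The apolipoprotein-like subunits did not move alike. Apool (ENSMUSG00000025525, chrX:112311334-112372755, plus strand), which encodes the cardiolipin-binding MIC27, was lower with BAM15. Its lowest, median and highest levels were 32.5, 38.7 and 39.7 CPM with vehicle and 23.0, 23.9 and 26.1 CPM with BAM15. The groups did not overlap, which was true downward in 17.0% and upward in 17.1% of all tested genes. The means were 37.7 ± 2.63 and 24.2 ± 1.22 CPM (SD, n = 6 each), so the mean fell by 35.8%. The log2 fold change was −0.64 (standard error 0.06) and was called lower, though short of the 2-fold threshold. In this gene the BAM15 libraries agreed closely, with means of 24.1 CPM in libraries 1 to 3 and 24.3 CPM in libraries 4 to 6.

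Apoo (ENSMUSG00000079508, chrX:94367117-94417093, plus strand), which encodes MIC26, had the lowest CPM of the members. Its counts were 25 to 38 reads per library with vehicle and 19 to 58 with BAM15. The lowest, median and highest levels were 1.56, 1.73 and 2.15 CPM with vehicle and 1.17, 1.67 and 4.00 CPM with BAM15. BAM15 libraries 1 to 3 lay below every vehicle library (mean 1.23 CPM), whereas libraries 5 and 6 lay above every one, with a mean of 3.01 CPM for libraries 4 to 6. The log2 fold change of 0.25 (standard error 0.29) therefore averaged over sets that went opposite ways, and it was −0.02 without BAM15 library 6. Of the same 50-base windows of Apoo, 56.4% (53.1% with 75 bases) also occurred in the pseudogene Apoo-ps, which is no row of the count table, and its part in the low counts was not tested. Apool, Chchd3, Chchd6 and Immt share no such window with another gene. For Chchd10 the share was 8.83% (1.84% with 75 bases), with Mmp11 on the opposite strand.

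The subunits together took up overlapping amounts of reads in both groups. Reads on the 5 MICOS members plus Minos1 and 2410015M20Rik summed to 543 ± 16.5 CPM with vehicle and 511 ± 25.0 CPM with BAM15 (SD, n = 6 each). Within this sum Apool fell from 6.92 ± 0.330% to 4.74 ± 0.314%, and its ranges did not overlap. The share of 2410015M20Rik rose from 13.8 ± 0.708% to 17.3 ± 0.922%, also without overlap. Among all tested genes, CPM did not overlap between groups in 17.1% upward and 17.0% downward. Shares of a sum depend on each other, and that of Minos1 fell from 25.6 ± 1.37% to 21.4 ± 1.97%. The share of Immt was 34.3 ± 1.55% with vehicle and 34.5 ± 2.76% with BAM15.

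**Figure D3:**
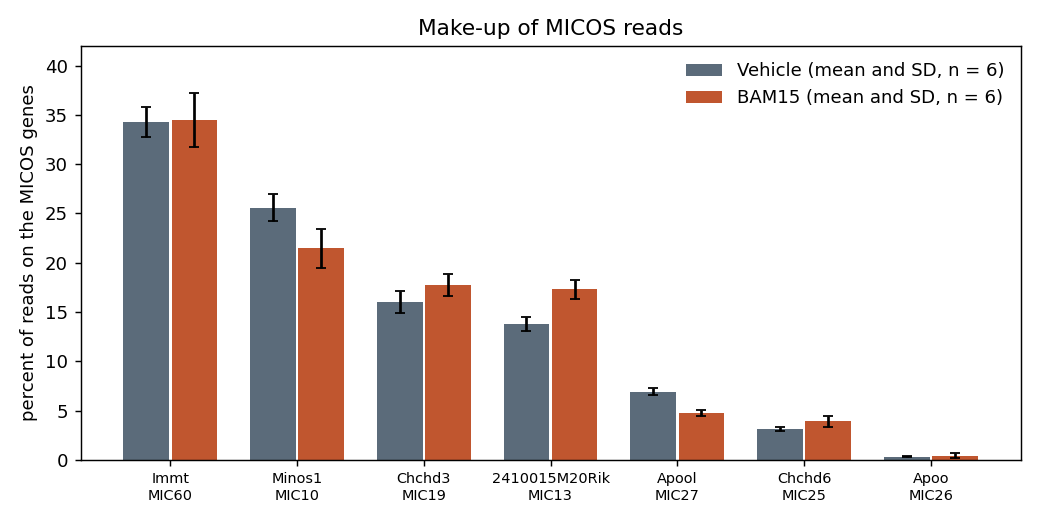
Share of the reads on 7 MICOS genes taken by each subunit (percent, mean and SD of 6 libraries per group, axis from 0). Immt held about the same share in both groups, Apool and Minos1 held less with BAM15, and 2410015M20Rik held more.

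The other core subunits were not among the members. Minos1, the membrane-bending MIC10, fell from 139 ± 8.22 to 109 ± 5.50 CPM, a log2 fold change of −0.35 (with standard error 0.05 and edgeR adjusted p = 6.69e-05). 2410015M20Rik, the MIC13 linker, rose from 74.9 ± 3.97 to 88.2 ± 2.97 CPM (log2 fold change 0.23, edgeR adjusted p = 0.00106), a call that was lost without TMM scaling and in libraries 4 to 6 alone. The other 5 genes of the bridge to the outer membrane did not pass the test. Among them Samm50, the channel of the sorting and assembly machinery, was at 147 CPM in both groups (log2 fold change −0.01, standard error 0.06). The median log2 fold change of this list of 7 was −0.05, against 0.02 over all tested genes.

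Further lists covered proteins that shape cristae with MICOS or import its CX9C subunits. Of the 54 genes listed, MICOS bridge included, 53 were tested, 11 were called higher, 10 lower and 32 were not called. These were 20.8% and 18.9% of the tested list genes, near the 22.0% and 20.3% called over all genes. Only Rbpj passed all 3 thresholds.

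OPA1 is the inner-membrane fusion GTPase that narrows cristae junctions and is cut by OMA1 and YME1L. Of 9 genes of OPA1 and inner-membrane proteolysis, 3 were called higher and 0 lower in edgeR, with a median log2 fold change of 0.12. At an unadjusted p below 0.05 edgeR gave 2 lower, DESeq2 called 1 lower and limma-voom 0. In libraries 4 to 6 alone 1 of the 3 higher calls was kept, that of Afg3l2. Afg3l2, a subunit of the m-AAA protease, rose the most, from 34.1 ± 3.79 to 48.2 ± 8.76 CPM (log2 fold change 0.50, standard error 0.11 and edgeR adjusted p = 0.00145). Neither Opa1 itself (log2 fold change 0.12, edgeR adjusted p = 0.170) nor Oma1 (−0.06, edgeR adjusted p = 0.484) passed the test.

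Cardiolipin is the inner-membrane lipid that MIC27 binds. Of 7 genes for its synthesis and remodelling, 0 were called higher and 3 lower in edgeR, with a median log2 fold change of −0.26. Over all tested genes, 20.3% were called lower. At an unadjusted p below 0.05 edgeR gave 2 higher, DESeq2 called 1 higher and limma-voom 0. Crls1, cardiolipin synthase, rose the most, from 17.6 ± 1.88 to 25.8 ± 8.24 CPM, but was not called (log2 fold change 0.55, edgeR adjusted p = 0.0170). Taz, for cardiolipin acyl remodelling, was not called either (log2 fold change 0.26, edgeR adjusted p = 0.0203). The largest decrease was that of Prelid1, which carries phosphatidic acid to the inner membrane and fell from 137 ± 9.61 to 81.2 ± 9.64 CPM (log2 fold change −0.75, standard error 0.08 and edgeR adjusted p = 1.12e-06). Triap1, its twin CX9C partner, and Tamm41, the first enzyme of the matrix-side pathway, were the others called lower. In libraries 4 to 6 alone both of these calls were lost.

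CHCHD10, CHCHD2, MIC19 and MIC25 enter the intermembrane space through MIA40, which oxidizes their cysteines. Of 17 genes of this route and of other twin CX9C proteins, 4 were called higher and 5 lower, with a median log2 fold change of 0.14. Both enzymes of the relay rose. Chchd4, which encodes MIA40, went from 39.4 ± 0.970 to 53.0 ± 7.75 CPM (log2 fold change 0.43, standard error 0.08 and edgeR adjusted p = 0.000539), a call lost in the fit of libraries 1 to 3. Gfer, the sulfhydryl oxidase that recharges MIA40, rose the most, from 19.1 ± 1.32 to 30.8 ± 4.92 CPM (log2 fold change 0.69, edgeR adjusted p = 3.32e-05). Aifm1, a partner of MIA40, was called lower (log2 fold change −0.30, edgeR adjusted p = 0.00547), a call lost without vehicle library 1, 2, 3 or 6. The largest decrease was that of Cox19, a cytochrome c oxidase assembly factor (log2 fold change −0.55, edgeR adjusted p = 4.17e-06). None of these 17 genes came near the difference of Chchd10: their log2 fold changes lay between −0.55 and 0.69.

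C1qbp encodes the matrix protein p32, a reported partner of CHCHD2 and CHCHD10, and rose from 161 ± 8.36 to 252 ± 61.9 CPM (log2 fold change 0.65, standard error 0.13 and edgeR adjusted p = 0.000855). Rbpj encodes the DNA-binding protein that nuclear CHCHD2 is reported to join on the Cox4i2 gene. It rose from 28.4 ± 3.25 to 69.4 ± 2.61 CPM (log2 fold change 1.29, standard error 0.07 and edgeR adjusted p = 1.25e-09). Cox4i2 was not a row of the count table, and its common counterpart Cox4i1 had a log2 fold change of 0.07, which did not pass the test. In a list of 3 ATP synthase subunits and the inhibitor IF1, the subunit e gene Atp5k was called lower (log2 fold change −0.42, edgeR adjusted p = 0.00266) and the other 3 were not called. DESeq2 and limma-voom each called 2 genes of this list lower.

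For mitochondrial content, 1 of 6 genes was called higher and 0 lower, with 0 lower at an unadjusted edgeR p below 0.05 and 0 in DESeq2 or limma-voom. That gene was Vdac3, an outer-membrane porin, at 56.2 ± 4.92 CPM with vehicle and 88.0 ± 6.58 CPM with BAM15 (log2 fold change 0.65, edgeR adjusted p = 1.52e-06). Cs, Vdac1, Vdac2, Tomm20 and Tfam had log2 fold changes between 0.03 and 0.18 and did not pass the test.

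**Figure D4:**
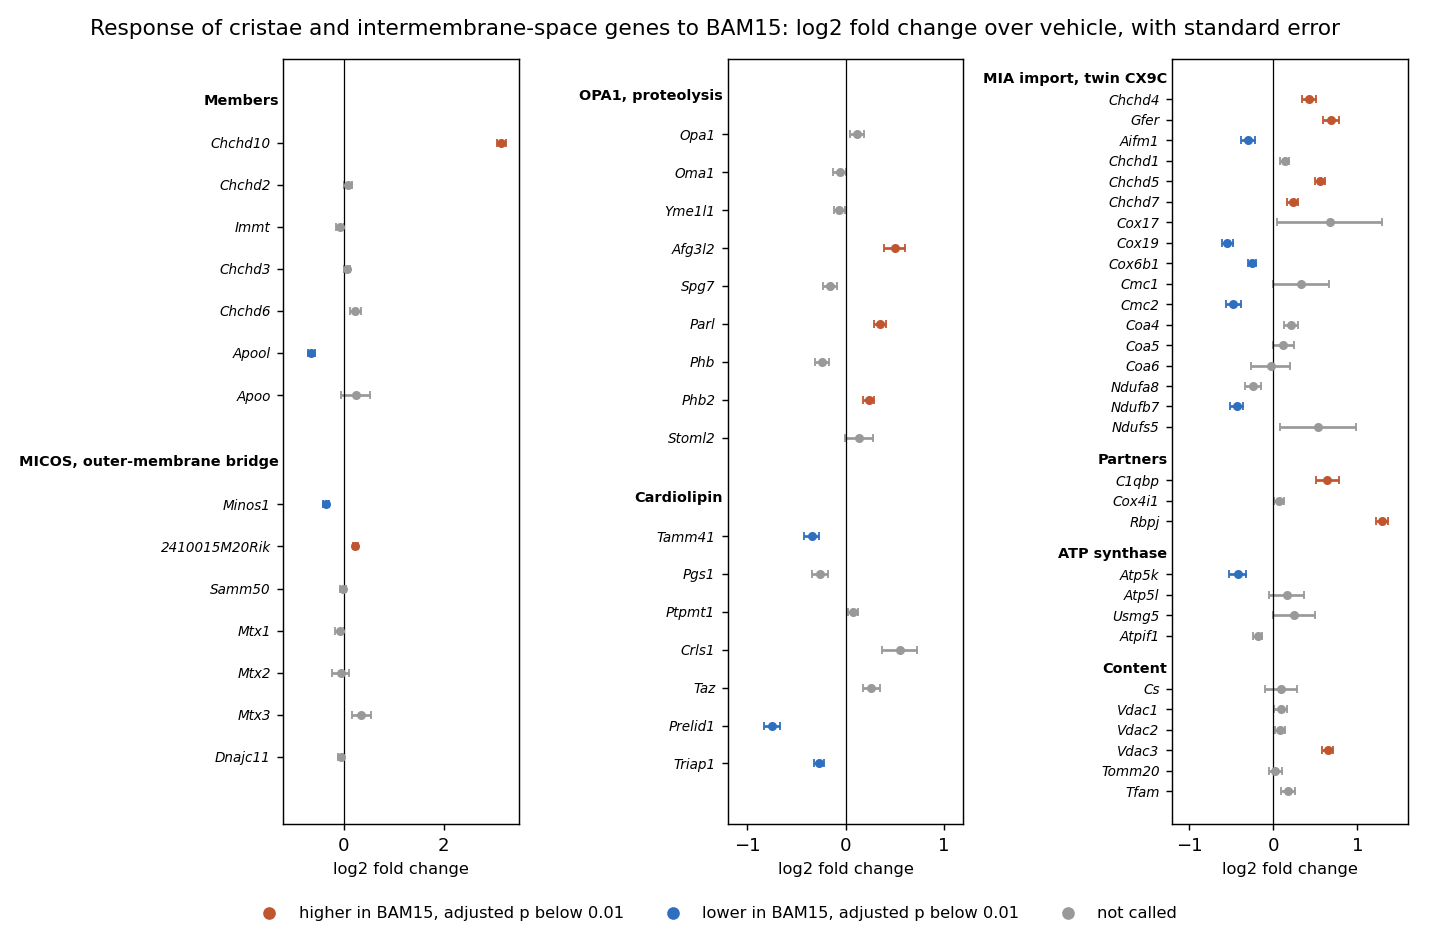
Log2 fold change of BAM15 over vehicle (horizontal axes, not the same scale in each panel) with its standard error for the 7 members and 53 further genes, by list; color marks genes called higher, called lower or not called at an adjusted p below 0.01. Chchd10 stood at 3.15, whereas the 53 further genes lay between −0.75 and 1.29.

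The order of the members was compared on the CPM scale, where 3′ reads need no division by length. With vehicle it ran Chchd2, Immt, Chchd3, Apool, Chchd10, Chchd6 and Apoo. In each of the 6 neighboring pairs the first gene was higher in 6 of 6 libraries. The exact two-sided sign-flip permutation p was 0.0312 and the adjusted p 0.0312, the smallest that 6 libraries allow. The pairs were formed by sorting these same libraries. The p therefore describes how steady the order was between them and is no independent test of it. The narrowest gap was that between Apool and Chchd10, 1.36-fold, and the widest that between Chchd2 and Immt, 10.5-fold. With BAM15 the order became Chchd2, Chchd10, Immt, Chchd3, Apool, Chchd6 and Apoo. Chchd10 went from below Apool to above Immt, by 1.40-fold in 6 of 6 libraries. Apool and Chchd6 stood 1.23-fold apart and in that order in 5 of 6 libraries, a mean log2 difference of 0.30 with an SD of 0.29. Their ratio was 0.981 to 1.09 in BAM15 libraries 1 to 3 and 1.30 to 1.54 in libraries 4 to 6. The shared windows of Chchd2 and Apoo bear on both ends of this order.

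The profile of each member was compared with those of 10470 genes with a base mean above 50. Likeness was the root mean square difference over the 12 libraries in log2 CPM, after the vehicle mean of each gene had been taken off. For a gene with a large difference, such as Chchd10, this measure depends largely on how close the fold changes are. Shared control was not tested. The 5 genes nearest to Chchd10 were Pck2 (0.08), Snhg12 (0.15), Angptl6 (0.16), Sesn2 (0.17) and Gsta4 (0.21). Pck2 went from 20.0 to 171 CPM, Sesn2, a stress-induced inhibitor of mTORC1, from 5.28 to 44.1 CPM, and Gsta4, which detoxifies lipid aldehydes, from 13.6 to 104 CPM. Snhg12 is a snoRNA host gene, which went from 21.1 to 176 CPM, and Angptl6, a secreted angiopoietin-like factor, went from 7.32 to 60.8 CPM.

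**Figure D5:**
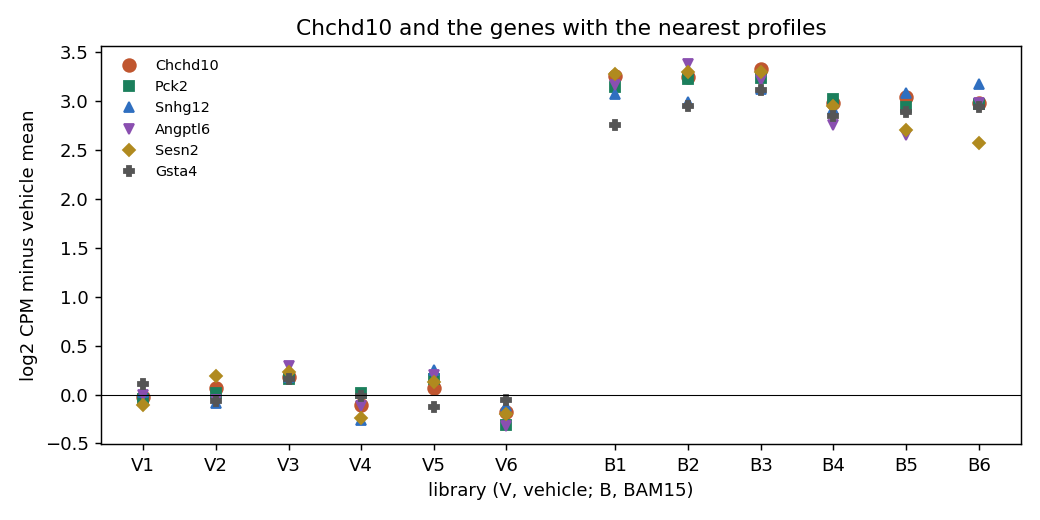
Log2 CPM minus the vehicle mean of the gene (vertical axis) in each of 6 vehicle (V1 to V6) and 6 BAM15 (B1 to B6) libraries for Chchd10 and the 5 genes nearest to it. Pck2 followed Chchd10 most closely, with a root mean square difference of 0.08.

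No other member was near Chchd10, with differences of 2.07 to 2.67. This mostly restates the rise of Chchd10, which was known when the members were chosen, and is no separate result. The closest pair of members was Chchd2 and Chchd6 (0.15), followed by Chchd3 and Immt (0.17). Immt, Chchd2, Chchd3 and Chchd6 differed little between groups, so the genes nearest to them were others with little difference. Their distances lay below 0.17, the median within-group SD of log2 CPM among genes with a base mean above 50. No link between such genes can be read from this measure. The genes nearest to Immt were Vezf1 (0.03), Dnm1l, which encodes the fission GTPase DRP1 (0.05), and the muscle cofilin Cfl2 (0.05). Nearest to Apool were Mmp15 (0.07), Aamdc (0.08) and 3300005D01Rik (0.08). Eif4a3 and Ppp2r5d were near to Chchd2, Rb1cc1, Palm and Fam92a to Chchd3, and H19, Dpep1 and Rhoc to Chchd6, with differences of 0.04 to 0.08. The genes nearest to Apoo were Gm10076, Ell and Tmem231 at 0.20 to 0.21. Its 19 to 58 reads per library limit how close any profile could come, so these distances were not read as a distinct profile.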

How the data were processed

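The authors deposited whole-number counts of 3′ reads per Ensembl gene, and a signal table of the same counts divided by DESeq2 size factors (DESeq2 1.22.2 and GRCm38, per the labels' processing notes); each deposited value equalled count over size factor. The alignment was run in BlueBee; aligner, counter and strand setting are not given in the sources used here. Gene symbols came from the deposited table and positions from GENCODE M21. Both deposited tables also held 11 columns of other samples, which were not used. The 6 BAM15 and 6 vehicle libraries were compared in edgeR 4.0.16 (R 4.3.3; filterByExpr, TMM, robust quasi-likelihood test, Benjamini-Hochberg over 12730 genes, no covariate), which was tested on simulated data. CPM are TMM-scaled, and log2 CPM used a prior count of 2. Calls used an adjusted p below 0.01, and the study's thresholds of base mean above 50 and 2-fold were counted as well. DESeq2 1.42.0, limma-voom (limma 3.58.1), other scalings, filters and sets of libraries were alternatives.

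The members and lists were chosen with earlier results of these data known. Named from the lists were every gene past the 3 thresholds, otherwise the largest called increase and decrease of each list, plus Micos10 (listed as Minos1), Micos13 (listed as 2410015M20Rik), Samm50, Opa1, Oma1, Chchd4, C1qbp and Cox4i2, and the 5 genes nearest to Chchd10 and 3 nearest to each other member, of which 1 is not reported here. Triap1, Tamm41, Crls1, Taz, Cox4i1, further calls that changed between alternatives and the genes near Chchd10 were named after their values were seen. Promoter windows came from RefSeq (GRCm38.p6) and were matched by symbol for 6 members, all but Chchd2. Motifs were searched in exact letters. Replicates differed by more than sampling noise.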

Additional observations from a re-analysis of the deposited data

Results flagged for a closer look

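In 30 groups of 6 libraries (15 genes in each of 2 groups), 2 had a library far from the other 5 by Dixon's test, a rate that chance gives in about 1 of 20 groups. Both were vehicle library 4. It had the lowest Apool level, 32.5 CPM, against 37.3 CPM in the next library, and the lowest level of Oma1, a stress-activated inner-membrane protease, 13.0 CPM against 14.9 CPM. With any 1 library left out, this one included, the log2 fold change of Apool lay between −0.68 and −0.62.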

How the results depend on the processing

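Of the 7 members, Chchd10 (log2 fold change 3.07 to 3.21), Apool (−0.70 to −0.59), Chchd3 (0.00 to 0.09) and Immt (−0.17 to −0.01) kept their direction under 25 alternatives each and their side of the threshold under the 24 that gave a test. Apoo reversed to −0.022 without BAM15 library 6 and to −0.53 in libraries 1 to 3 alone, over a range of −0.022 to 0.37 with 1 library left out. Chchd2 reversed to −0.049 in libraries 4 to 6 alone, and Chchd6 became called in libraries 1 to 3 alone (0.40). The causes were not tested. Genes called numbered 5379, and 927 under all 3 thresholds; of the pathway genes 21 were called, and 1 under all 3 thresholds, by construction stricter. With 1 library left out the counts were 4874 to 5509 and 19 to 23. Of the 21 pathway calls, 12 were kept in all 24 such alternatives. In libraries 4 to 6 alone 7 were lost (Phb2, Parl, Triap1, Tamm41, Cox6b1, Chchd7 and 2410015M20Rik), in libraries 1 to 3 alone Chchd4 and Chchd7, and with library size only Phb2, Chchd7 and 2410015M20Rik. Chchd7 was kept in 6 of 24, and Aifm1 was lost without vehicle library 1, 2, 3 or 6. Single library numbers did not pair the groups. Correlations of deviations for the same number ran from −0.09 to 0.52, and 2 of 6 BAM15 libraries matched their own number best. The numbered sets did match across groups: BAM15 libraries 1 to 3 all matched vehicle 3 best and BAM15 libraries 4 to 6 vehicle 6. The main fit did not use these sets. With the replicate block 5292 genes were called, and no call among the members changed. A block on libraries 1 to 3 against 4 to 6, chosen after seeing the data, gave 6066 calls, 26 among the pathway genes, and changed no call among the members. Adding pseudogene reads was not run, since Chchd2-ps and Apoo-ps are no rows of the table. Low counts limit Apoo.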
